A study of Mus musculus with 16 samples.

Results

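The comparison described here is the epididymal white fat pad of control male mice at 20 weeks of age against that of control male mice at 8 weeks. It holds 8 of the 16 libraries of the series, chosen by their labels alone: genotype control and either age, 4 libraries at each. All of the mice, the controls included, were fed a high-fat diet (HFD22 from CLEA Japan, with 60% of its energy from fat) from 4 weeks of age, so the 8-week group (Ctrl_8wk) had been on the diet for 4 weeks and the 20-week group (Ctrl_20wk) for 16 weeks. No lean group was analysed here, and age and time on the diet rise together, so their parts cannot be told apart. The labels name no litter, batch or day, and they do not say that each library is a separate mouse. P-values therefore measure the spread between these libraries, and a difference in handling between the ages cannot be told apart from age. The other 8 libraries come from A-LTA4HOE mice (OE), in which leukotriene A4 hydrolase is overexpressed in adipocytes, on the same diet and at the same ages, with 4 libraries in OE_8wk and 4 in OE_20wk; the promoter that drives the transgene is not given in the sources used here. They share no library with the control comparison and are set beside it as other mice that were followed over the same interval.

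White fat stores triglyceride in adipocytes, which carry lipid droplets coated by perilipins, make fatty acids from glucose and release them by lipolysis. The same depot holds progenitor, endothelial, smooth muscle and immune cells. In mice fed a high-fat diet for months, the epididymal pad is known for macrophages that gather around dying adipocytes, take up their lipid, and express Trem2, a lipid receptor, and Gpnmb, a lysosomal membrane glycoprotein. Cfd (adipsin, complement factor D) and Retn (resistin) are proteins that mouse adipocytes secrete.

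The 16 libraries held between 33626901 and 67576994 counts, with 33626901 to 38447269 in the 20-week control libraries and 40939513 to 67576994 in the 8-week ones. The first principal component of the 8 control libraries carried 63.7% of the variance and separated the ages, except that Ctrl_8wk replicate 1 lay at -22.9 between the 20-week libraries (-93.4 to -71.0) and the other 8-week libraries (95.8 to 130). Ctrl_8wk replicate 4 stood apart by transcripts of the epididymis and of smooth muscle, given with those results, and Ctrl_20wk replicate 1 by immunoglobulin transcripts. The targeted gene of the transgenic line, Lta4h, did not pass the test between the ages in the controls, with 95.4, 82.4, 89.0 and 87.3 counts per 1000000 (CPM, scaled by the library's effective total) at 20 weeks and 104, 79.3, 85.4 and 90 CPM at 8 weeks. Adipocyte markers fit the labelled tissue. Fabp4, a fatty acid binding protein of adipocytes that the list of endothelial genes used below also holds, had the highest mean level per transcript length of all genes at both ages. It was at 19760 transcripts per 1000000 (TPM) at 20 weeks and 27300 TPM at 8 weeks.

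The 4 genes that mark the comparison moved by large amounts and without overlap between the ages. Trem2 (chr17:48346401-48352276, mm10) was at 250, 432, 402 and 219.6 CPM at 20 weeks and 11.7, 9.07, 7.33 and 7.59 CPM at 8 weeks. All 20-week libraries were above all 8-week libraries, and the log2 fold change was 5.20 ± 0.61 SE, adjusted p = 6.38e-05, an edgeR quasi-likelihood test adjusted over all genes by the Benjamini-Hochberg method, as are all adjusted p-values below. In a bulk sample, fewer cells of a type and less RNA per cell cannot be told apart, for this and every result that follows. Gpnmb (chr6:49036518-49058182) was at 1280, 3245, 2262 and 1448 CPM at 20 weeks and 52.0, 19.4, 16.1 and 19.4 CPM at 8 weeks. Replicate 1 was the highest of the 8-week libraries and the lowest of the 20-week ones, still without overlap, at a log2 fold change of 6.27 ± 1.01 SE, adjusted p = 0.000405; without Ctrl_8wk replicate 1 the change was 6.81. Cfd (chr10:79890853-79892655) went the other way, with 281, 147, 111 and 296 CPM at 20 weeks and 1983, 3847, 4565 and 6538 CPM at 8 weeks. It stood seventh among all genes at 8 weeks by mean TPM, 9604, and had 492 TPM at 20 weeks, a log2 fold change of -4.34 ± 0.49 SE, adjusted p = 5.2e-05. Retn (chr8:3655770-3659818) was at 145, 96.4, 69.7 and 157 CPM at 20 weeks and 1513, 2022, 1809 and 969.6 CPM at 8 weeks, a log2 fold change of -3.75 ± 0.46 SE, adjusted p = 7.71e-05, and the lowest 8-week library was above the highest 20-week library by several fold. The same 4 genes passed the test in the same directions in the OE mice, with log2 fold changes of 3.74 for Trem2, 4.29 for Gpnmb, -3.90 for Cfd and -2.97 for Retn. Among the 8-week OE libraries, OE_8wk replicate 2 was far the highest for Gpnmb, at 361.7 CPM against 19.67 to 40.65 CPM. It was also the highest for Trem2, at 50.75 CPM against 7.707 to 11.35 CPM.

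**Figure D1:**
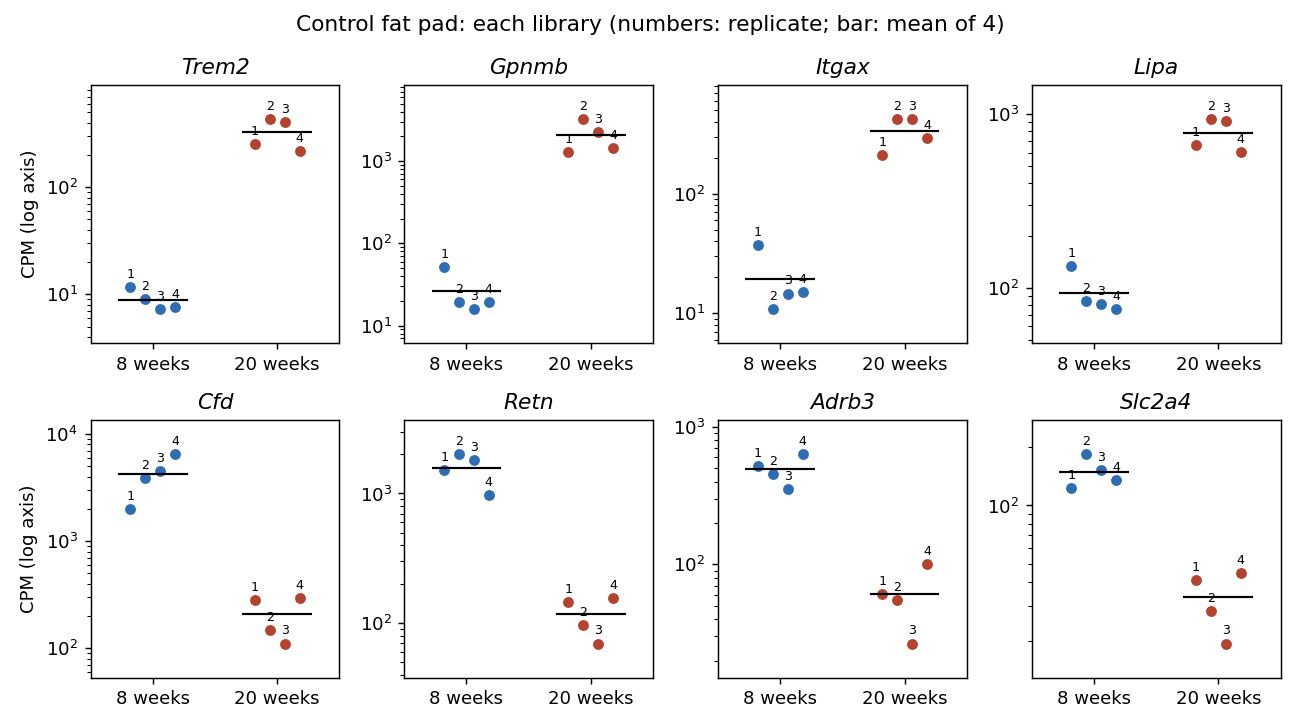
CPM on a log axis for 8 genes in the 8 control libraries, with a point for each library, numbered by replicate, and a bar at the mean. Trem2, Gpnmb, Itgax and Lipa lie higher in all 4 libraries at 20 weeks, and Cfd, Retn, Adrb3 and Slc2a4 lie lower, with no overlap between the ages in any panel.

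Over all 19189 genes tested, 3770 rose (19.6%) and 4083 fell (21.3%) at an adjusted p under 0.05, which is the background for the counts in each gene list below. The libraries of the 2 ages did not overlap for 33.2% of genes, 3546 of them higher and 2832 lower at 20 weeks. The median log2 fold change over all genes was -0.05. The largest rises and the largest falls differed in kind. Of 302 rises over 8-fold, 275 (91.1%) had no overlap between the ages, and 274 were still called without Ctrl_8wk replicate 4. Of 807 falls over 8-fold, 190 (23.5%) had no overlap, 290 had no read in any 20-week library, and in 610 the first 8-week library was at or under the highest 20-week library. The rises had a median over genes of 4.39 CPM at 20 weeks and 0.19 CPM at 8 weeks. Without Ctrl_8wk replicate 1, 273 of the 302 rises and 805 of the 807 falls were still called. The genes of those falls were low, with a median over genes of 0.029 CPM at 20 weeks and 1.92 CPM at 8 weeks. Of the 807, 504 were still called without Ctrl_8wk replicate 4. The falls of abundant adipocyte genes described below are not of that kind. With 2 surrogate variables in the model, which are hidden factors estimated from the counts, 1083 genes rose and 675 fell. Of the 137 called genes named here, 93 were still called in the same direction under that model. The counts of a list under that model are given in brackets where they differ from its main counts by more than 1.5 times and the larger is at least 4, and likewise the counts without a single control library or without the 4 libraries that stood apart, Ctrl_8wk replicates 1 and 4 and OE_8wk replicates 1 and 2.

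Macrophage genes rose nearly as a block: 19 of 20 macrophage markers and 20 of 24 genes of the lipid-associated macrophage list were higher, with median log2 fold changes of 2.15 and 2.77. Adgre1, which encodes the macrophage surface protein F4/80, was at 780.3, 874, 904 and 472 CPM at 20 weeks and 108, 61.6, 69.0 and 72.1 CPM at 8 weeks, with no overlap and a log2 fold change of 3.29 ± 0.38 SE, adjusted p = 5.8e-05. Itgax, the CD11c integrin chain, was at 213, 423, 420.5 and 293 CPM at 20 weeks and 37.3, 10.9, 14.6 and 15.1 CPM at 8 weeks, and again every 20-week library exceeded every 8-week library (4.12 ± 0.48 SE, adjusted p = 6.28e-05). Lgals3, the lectin galectin-3, was at 1121, 1785, 1680 and 1152 CPM at 20 weeks and 246, 156, 139 and 87.4 CPM at 8 weeks, so that it was among the more abundant transcripts of the pad at 20 weeks. Mmp12, the macrophage elastase, was at 358, 812, 652 and 533 CPM at 20 weeks and 61.0, 6.82, 7.51 and 10.8 CPM at 8 weeks; Ctrl_8wk replicate 1 was again the highest of its group, and the log2 fold change was 4.78 with it and 6.13 without it. Further large rises without overlap were those of Itgad, the CD11d integrin chain (5.88 ± 0.54 SE, adjusted p = 2.29e-05), Atp6v0d2, a proton pump subunit (5.72 ± 0.92 SE, adjusted p = 0.000403, and 6.49 without Ctrl_8wk replicate 1), Slc37a2, a sugar phosphate transporter (4.62 ± 0.69 SE, adjusted p = 0.000239), and Cd72, a receptor of B cells and macrophages (4.50 ± 0.44 SE, adjusted p = 3.01e-05). The only lipid-associated gene that fell was Acp5, the tartrate-resistant acid phosphatase, at 201, 187, 155 and 218 CPM at 20 weeks and 493, 300.5, 324 and 275 CPM at 8 weeks (-0.87 ± 0.23 SE, adjusted p = 0.0102), a call that was lost with 2 surrogate variables. Apoe, a carrier of lipid, did not pass, with 3791, 2939, 3598 and 2272 CPM at 20 weeks and 2373, 3229, 3239 and 2996 CPM at 8 weeks. Neither did Lpl, which frees fatty acids from lipoproteins, with 7145, 7459, 6955 and 7705 CPM at 20 weeks and 11220, 12990, 10940 and 5664 CPM at 8 weeks. Without Ctrl_8wk replicate 4, its lowest 8-week library, Lpl was called lower (adjusted p = 0.00634).

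Lysosomal genes rose across enzymes, membrane proteins and the proton pump. Lysosomes hold acid hydrolases that break down protein, lipid and sugar chains, and a vacuolar ATPase that acidifies them. Of 40 hydrolases tested, 31 were higher and 2 lower, with a median log2 fold change of 1.03; of 32 membrane proteins, pump subunits and regulators, 27 were higher and none lower, with a median of 0.90. The OE mice had 31 and 0 of the hydrolases and 27 and 0 of the membrane and pump list. With 2 surrogate variables the counts in the controls were 22 and 11 higher. Ctsd, the protease cathepsin D, was at 4867, 6855, 5749 and 4365 CPM at 20 weeks and 2867, 1653, 1670 and 1028 CPM at 8 weeks, which placed it eighth among all genes by mean TPM at 20 weeks. Ctsk, the collagen-degrading cathepsin K, was at 191, 284, 258 and 176 CPM at 20 weeks and 37.0, 34.9, 36.5 and 26.8 CPM at 8 weeks, a log2 fold change of 2.75 ± 0.27 SE, adjusted p = 3.02e-05. Galc, which removes galactose from galactolipids, had one of the tightest differences, with 97.6, 124, 122 and 90.4 CPM at 20 weeks and 34.8, 28.1, 27.4 and 21.0 CPM at 8 weeks (1.96 ± 0.18 SE, adjusted p = 2.29e-05). Ctsa, the protective protein cathepsin A, rose by 2.0 ± 0.23 SE, adjusted p = 5.15e-05. The pump subunit Atp6v1b2 was at 419.8, 587, 533 and 386 CPM at 20 weeks and 189, 135, 148 and 108 CPM at 8 weeks (1.73 ± 0.21 SE, adjusted p = 6.53e-05). Mitf and Tfeb, transcription factors of lysosomal genes, were higher without overlap. Mitf was at 42.9, 58.5, 63.8 and 44.2 CPM at 20 weeks and 14.5, 12.4, 9.89 and 14.6 CPM at 8 weeks (2.02 ± 0.24 SE, adjusted p = 6.06e-05). Tfeb was at 32.5, 40.4, 39.8 and 28.7 CPM at 20 weeks and 14.1, 16.7, 15.7 and 14.9 CPM at 8 weeks (1.2 ± 0.15 SE, adjusted p = 7.96e-05). Some abundant members did not pass, and their ranges overlapped. The pump subunit Atp6v1e1 was at 165, 179, 162 and 166 CPM at 20 weeks and 193, 167, 158 and 114 CPM at 8 weeks. Another subunit, Atp6v0e, was at 114, 129.5, 125 and 113 CPM at 20 weeks and 137, 110.5, 112 and 81.7 CPM at 8 weeks. The protease Ctsc was at 337, 264, 314 and 255 CPM at 20 weeks and 234, 249.7, 234 and 261 CPM at 8 weeks.

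Because lysosomal genes moved together, their promoters are shown, taken from RefSeq on the build GRCm38.p6 as the 250 bases before each transcription start. The hexamer CACGTG, which reads the same on both strands, is the core of the element that factors of the Tfeb family are known to bind, and capitals mark each copy of it. It was present in 16 of 75 windows of both lysosomal lists (21.3%), where 60 of the 72 genes had at least 1 window in the table, in 13 of 60 windows of the members that rose (21.7%), and in 1311 of 17559 windows of all tested genes (7.47%). By list, 11 of 39 hydrolase windows (28.2%) and 5 of 36 membrane and pump windows (13.9%) held it. Lists with more falls than rises held it too, in 4 of 19 windows of cholesterol synthesis (21.1%) and 3 of 21 of fatty acid synthesis (14.3%). The lipid-associated macrophage list, most of which rose, held it in 2 of 24 windows (8.33%). Whether the hexamer had a part in the rise of the lysosomal genes was not tested. The longer form TCACGTGA, which contains the hexamer, was in 5 of 75 windows (6.67%) against 220 of 17559 (1.25%). A match is a description of these letters and not a site of binding.
Ctsa, chr2:164833523-164833772, plus strand, 1 copy: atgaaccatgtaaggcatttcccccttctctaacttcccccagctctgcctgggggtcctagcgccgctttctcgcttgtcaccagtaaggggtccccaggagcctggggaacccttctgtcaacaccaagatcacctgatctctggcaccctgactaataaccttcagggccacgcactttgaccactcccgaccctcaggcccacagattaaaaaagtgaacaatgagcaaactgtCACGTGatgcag
Lamp1, chr8:13158911-13159160, plus strand, 4 copies: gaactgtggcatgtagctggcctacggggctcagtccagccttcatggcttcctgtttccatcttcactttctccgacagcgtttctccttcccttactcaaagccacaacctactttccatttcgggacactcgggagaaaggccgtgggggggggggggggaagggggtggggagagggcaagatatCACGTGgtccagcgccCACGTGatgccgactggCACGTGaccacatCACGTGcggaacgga
Mcoln1, chr8:3500269-3500518, plus strand, 2 copies: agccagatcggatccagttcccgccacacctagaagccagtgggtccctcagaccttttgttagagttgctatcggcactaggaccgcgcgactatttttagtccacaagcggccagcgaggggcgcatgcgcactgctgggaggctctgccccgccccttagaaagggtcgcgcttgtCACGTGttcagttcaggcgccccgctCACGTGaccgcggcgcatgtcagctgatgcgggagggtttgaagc
Atp6v0b, chr4:117887330-117887579, minus strand, 2 copies: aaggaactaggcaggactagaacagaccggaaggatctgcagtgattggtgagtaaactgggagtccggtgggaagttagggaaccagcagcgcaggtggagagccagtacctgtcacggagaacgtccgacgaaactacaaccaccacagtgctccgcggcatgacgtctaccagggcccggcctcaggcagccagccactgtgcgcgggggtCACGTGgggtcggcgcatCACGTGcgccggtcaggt
These 4 genes were chosen after their values were seen, as members that rose and held the hexamer. Their levels were 1208, 1378, 1292 and 1148 CPM at 20 weeks and 931, 729, 785 and 637 CPM at 8 weeks for Lamp1, a major lysosomal membrane glycoprotein (0.71 ± 0.13 SE, adjusted p = 0.000958). Mcoln1, the lysosomal calcium channel, was at 42.0, 50.6, 49.1 and 40.6 CPM at 20 weeks and 36.6, 31.0, 32.2 and 29.6 CPM at 8 weeks (0.50 ± 0.09 SE, adjusted p = 0.00111). Atp6v0b, a subunit of the pump's membrane sector, was at 175, 208, 203 and 152 CPM at 20 weeks and 128, 102, 99.3 and 82.0 CPM at 8 weeks (0.84 ± 0.16 SE, adjusted p = 0.00135). Ctsa, given above, rose by 2.0 ± 0.23 SE, adjusted p = 5.15e-05. With 4 genes chosen in this way, a relation between the number of copies and the size of change was not tested.

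Genes that move sterols out of lysosomes and cells rose, whereas most genes that make cholesterol did not. In the list of cholesterol storage and efflux, 11 of 17 genes were higher and none lower, with a median log2 fold change of 0.64 (7 higher without Ctrl_20wk replicate 3 or without Ctrl_8wk replicate 2). Lipa, the lysosomal acid lipase that frees cholesterol from its esters, was at 666, 935, 911 and 606 CPM at 20 weeks and 133, 84.3, 80.6 and 75.9 CPM at 8 weeks (3.06 ± 0.34 SE, adjusted p = 4.9e-05). Abcg1, an exporter of cholesterol, was at 166, 201, 198 and 119 CPM at 20 weeks and 49.2, 29.5, 27.7 and 39.3 CPM at 8 weeks, with all 20-week libraries higher (2.23 ± 0.24 SE, adjusted p = 4.24e-05). Soat1, which esterifies cholesterol for storage, rose by 2.72 ± 0.36 SE, adjusted p = 0.000118, Nceh1, which hydrolyses the esters again, by 3.48 ± 0.45 SE, adjusted p = 9.68e-05, and the scavenger receptor Msr1 by 2.65 ± 0.30 SE, adjusted p = 5.36e-05. The exporter Abca1 changed less, with 448, 431, 496 and 451 CPM at 20 weeks and 333, 306, 257 and 277 CPM at 8 weeks (0.64 ± 0.10 SE, adjusted p = 0.000323). Of 23 genes of cholesterol synthesis, 1 was higher and 7 lower (4 lower without Ctrl_20wk replicate 1 or 3, and 12 without Ctrl_8wk replicate 4). Fdft1, squalene synthase, was at 23.1, 27.4, 23.4 and 31.2 CPM at 20 weeks and 47.0, 50.2, 52.0 and 50 CPM at 8 weeks and fell by 0.92 on the log2 scale, with an adjusted p of 0.000185, and Tm7sf2, a sterol reductase, by 0.69. Hmgcs1, an early enzyme of the pathway, was at 411, 359.5, 330.5 and 508 CPM at 20 weeks and 675, 563, 559.5 and 252 CPM at 8 weeks and did not pass. Srebf2, the regulator of the pathway, did not pass either, at 102, 129.9, 131 and 102 CPM at 20 weeks and 95.2, 79.5, 105 and 97.3 CPM at 8 weeks. The OE mice had 5 genes of the synthesis list higher and none lower, and the difference between the genotypes passed the test for no gene. Without the libraries that stood apart the controls had 1 higher and 11 lower, and with 2 surrogate variables 1 and 2.

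Iron and eicosanoid genes moved in both directions. Ftl1, the ferritin light chain that stores iron, was at 4977, 5921, 5997 and 4063 CPM at 20 weeks and 2242, 1597, 1641 and 1302 CPM at 8 weeks, the third most abundant transcript by mean TPM at 20 weeks, and rose by 1.63 ± 0.21 SE, adjusted p = 0.000106. Hmox1, which degrades heme, was at 209.8, 194, 187 and 146 CPM at 20 weeks and 68.2, 46.6, 44.0 and 36.4 CPM at 8 weeks (1.92 ± 0.24 SE, adjusted p = 9.11e-05). Slc11a1, a phagosomal metal transporter, was at 160.4, 209.9, 203 and 132 CPM at 20 weeks and 41.3, 19.7, 21.3 and 25.4 CPM at 8 weeks (2.71 ± 0.36 SE, adjusted p = 0.000116). Tfrc, the transferrin receptor for iron uptake, fell, from 63.8, 69.8, 68.4 and 43.2 CPM at 8 weeks to 33.1, 35.2, 32.6 and 35.8 at 20 weeks (-0.84 ± 0.14 SE, adjusted p = 0.000488). In this list 5 of 17 genes were higher and 4 lower (3 and 2 with 2 surrogate variables), near the background. Of 27 genes of leukotriene and prostaglandin metabolism, 8 were higher and 7 lower (2 and 2 with 2 surrogate variables; 3 or 4 lower without Ctrl_20wk replicate 1, 2 or 3 or without Ctrl_8wk replicate 4). Hpgds, the hematopoietic prostaglandin D synthase, had among the largest rises of the list, with 114, 205, 189 and 100.4 CPM at 20 weeks and 4.75, 6.93, 5.78 and 10.2 CPM at 8 weeks (4.45 ± 0.50 SE, adjusted p = 5.2e-05). Tbxas1, thromboxane synthase, rose by 2.81 ± 0.32 SE, adjusted p = 5.55e-05, and Alox5ap, the 5-lipoxygenase activating protein, by 1.12 ± 0.22 SE, adjusted p = 0.00138. Ptges, an inducible prostaglandin E synthase, was at 35.0, 36.1, 34.5 and 38.1 CPM at 20 weeks and 85, 81.6, 93.6 and 256 CPM at 8 weeks, with all 20-week libraries lower and the library of the epididymal transcripts, Ctrl_8wk replicate 4, the highest. Its log2 fold change was -1.84 ± 0.36 SE, adjusted p = 0.00136 and -1.27 without that library. Ltb4r1, a receptor for the lipid that leukotriene A4 hydrolase makes, was at 2.09, 1.22, 1.41 and 2.1 CPM at 20 weeks and 5.52, 3.04, 4.56 and 3.32 CPM at 8 weeks (-1.27 ± 0.26 SE, adjusted p = 0.00199), a call that was lost with 2 surrogate variables.

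Genes of resident and perivascular macrophages did not follow the other macrophage genes: 3 of 16 were higher and 8 lower, with a median log2 fold change of -0.78 (2 and 3 with 2 surrogate variables, 3 and 4 without the libraries that stood apart; 5 lower without Ctrl_20wk replicate 2 or 3 or without Ctrl_8wk replicate 1). Retnla, a secreted protein of alternatively activated macrophages, was at 185, 72.8, 72.8 and 159.8 CPM at 20 weeks and 1116, 494, 618 and 342 CPM at 8 weeks (-2.39 ± 0.45 SE, adjusted p = 0.00109). The lectin Mgl2 was at 21.9, 19.2, 23.2 and 28.1 CPM at 20 weeks and 182, 87.1, 99.7 and 56.1 CPM at 8 weeks (-2.20 ± 0.34 SE, adjusted p = 0.000291). Lyve1, a hyaluronan receptor of resident macrophages that lymphatic endothelium also makes, was at 22, 10, 14.7 and 38.8 CPM at 20 weeks and 88.2, 52.7, 54.9 and 50.2 CPM at 8 weeks (-1.52 ± 0.33 SE, adjusted p = 0.00258). Folr2, a folate receptor, and Stab1, a scavenger receptor, rose instead, by 1.82 ± 0.23 SE, adjusted p = 8e-05 and 1.72 ± 0.22 SE, adjusted p = 8.49e-05. Gas6, a bridging ligand for dying cells, did not pass, at 279, 215, 231 and 278 CPM at 20 weeks and 222, 242, 267 and 270.3 CPM at 8 weeks. Cd163, the hemoglobin scavenger receptor, did not pass, at 63.3, 48.3, 56.5 and 40.1 CPM at 20 weeks and 74.4, 67.7, 52.3 and 88.1 CPM at 8 weeks. It was called lower without Ctrl_20wk replicate 1 (adjusted p = 0.0483) or without Ctrl_8wk replicate 3 (0.0341).

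Ratios of these genes to Adgre1 within each library were computed to set them against the macrophage signal, for pairs chosen after the values were seen. For that reason the ratios, here and for the adipocyte genes below, are descriptions with no test. Trem2 counts were 32.0%, 49.4%, 44.5% and 46.5% of Adgre1 counts at 20 weeks and 10.8%, 14.7%, 10.6% and 10.5% at 8 weeks. That is a difference of 1.88 in the mean log2 ratio without overlap. The log2 ratio of Gpnmb was higher by 3.07, also without overlap. The ratio of Lipa was 85.4% to 128% at 20 weeks and 105% to 137% at 8 weeks, which overlapped, with a difference of -0.20. C1qa, a subunit of complement C1q, rose in CPM (1.84 ± 0.23 SE, adjusted p = 7.88e-05) but its ratio to Adgre1 was 60.2% to 85.4% at 20 weeks and 187% to 215% at 8 weeks, a log2 difference of -1.44. Mrc1, the mannose receptor, had ratios of 53.3% to 77.9% and 240% to 309%, a difference of -2.05. Folr2 ratios were 31.8% to 33.7% at 20 weeks and 86.2% to 102% at 8 weeks, a difference of -1.48. The differences were -4.94 for Lyve1, with ratios of 1.15% to 8.23% and 69.6% to 85.5%, and -5.66 for Retnla. Each of these lower ratios was without overlap.

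**Figure D2:**
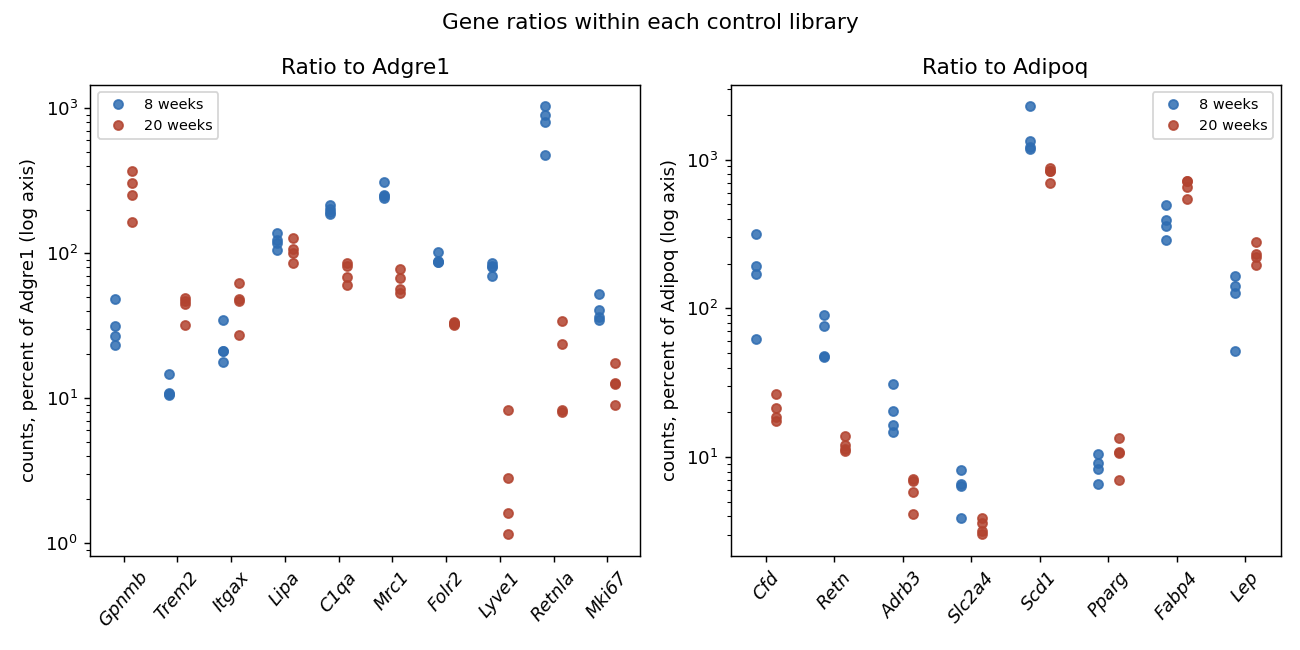
Ratio of the counts of a gene to those of Adgre1 (left) or Adipoq (right) in each control library, in percent on a log axis, with 20-week and 8-week libraries in separate colours. Against Adgre1, Gpnmb and Trem2 are higher at 20 weeks and C1qa, Mrc1, Folr2, Lyve1, Retnla and Mki67 lower. Against Adipoq, Cfd, Retn, Adrb3 and Scd1 are lower and Fabp4 and Lep higher.

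Receptors of innate immunity also rose. Fc receptors bind antibody, toll-like receptors bind microbial products, and inflammasomes activate interleukin 1. Of 13 Fc receptor and signalling genes 10 were higher, of 18 toll-like receptor genes 15, of 18 inflammasome and interleukin 1 genes 12, and of 21 genes of the tumour necrosis factor family 11, with none lower in any of the 4 lists and medians of 2.28, 1.26, 1.34 and 0.72. With 2 surrogate variables 8, 6, 5 and 5 were higher. Tlr8 was at 158, 159, 159 and 101 CPM at 20 weeks and 26.2, 15.1, 17.3 and 20.8 CPM at 8 weeks, with no overlap (2.86 ± 0.31 SE, adjusted p = 4.68e-05), and Tlr13 rose by 4.14 ± 0.53 SE, adjusted p = 9.11e-05. Fcgr3, a low-affinity receptor for IgG, was at 261, 269, 278 and 168 CPM at 20 weeks and 73.3, 39.9, 49.2 and 51.2 CPM at 8 weeks (2.19 ± 0.27 SE, adjusted p = 8e-05). In contrast, Fcgrt, the receptor that recycles IgG, was at 239.9, 220.0, 230.0 and 199.8 CPM at 20 weeks and 211, 219, 218 and 214 CPM at 8 weeks and did not pass. Casp1, the caspase of the inflammasome, was at 40.0, 44.2, 43.4 and 37.1 CPM at 20 weeks and 15, 8.18, 6.67 and 9.81 CPM at 8 weeks (2.06 ± 0.25 SE, adjusted p = 7.58e-05). The cytokine Tnf itself was low, at 3.53, 5.28, 3.72 and 4.20 CPM at 20 weeks and 2.04, 1.17, 0.771 and 0.853 CPM at 8 weeks, without overlap (1.79 ± 0.39 SE, adjusted p = 0.00277), and was chosen after its values were seen, as were Il1b and Il6. Il1b did not pass, at 0.782, 1.46, 1.16 and 0.490 CPM at 20 weeks and 4.36, 1.81, 0.612 and 0.880 CPM at 8 weeks. Il6 was barely detected and did not pass, at 0, 0.163, 0.302 and 0.327 CPM at 20 weeks and 0.903, 0.216, 0.113 and 0.0406 CPM at 8 weeks.

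Chemokines, interferon-stimulated genes and complement were mixed. Of 25 chemokine ligands 8 were higher and 2 lower, with a median of 0.09 (1 and 1 with 2 surrogate variables; 4 lower without the libraries that stood apart or without Ctrl_8wk replicate 1). Pf4, a platelet and macrophage chemokine, was at 104, 83.8, 92.6 and 66.1 CPM at 20 weeks and 29.4, 31.0, 32.3 and 30.2 CPM at 8 weeks, with no overlap (1.5 ± 0.14 SE, adjusted p = 2.39e-05). Another chemokine of myeloid cells, Ccl9, was at 510.1, 471, 471 and 345 CPM at 20 weeks and 202, 67.3, 74.8 and 72.2 CPM at 8 weeks (2.11 ± 0.41 SE, adjusted p = 0.00133). Ccl2, the ligand that draws monocytes, was at 36.1, 41.8, 43.3 and 58.5 CPM at 20 weeks and 105, 20.2, 19.4 and 5.79 CPM at 8 weeks and did not pass; Ctrl_8wk replicate 1 was the highest of the 8 libraries, and without it the log2 fold change was 1.57 with an adjusted p of 0.0388. Its receptor Ccr2 was at 67.9, 50.5, 66.1 and 85.9 CPM at 20 weeks and 111, 61.5, 60.3 and 64.3 CPM at 8 weeks and did not pass. Of 23 interferon-stimulated genes 1 was higher and 5 lower (none and 1 with 2 surrogate variables, 4 and 2 without the libraries that stood apart; 3 lower without Ctrl_20wk replicate 2 or without Ctrl_8wk replicate 1 or 4, and 8 without Ctrl_8wk replicate 2). The falls were near the background. Of 24 complement genes 14 were higher and 3 lower. Those that rose included C1qb (2.21 ± 0.24 SE, adjusted p = 4.72e-05) and the receptor C3ar1 (3.73 ± 0.42 SE, adjusted p = 5.36e-05), and those that fell, with Cfd, included C2 (-1.05 ± 0.24 SE, adjusted p = 0.00417). The abundant C4b, at 1717, 1327, 1281 and 1939 CPM at 20 weeks and 1418, 906, 1008 and 1329 CPM at 8 weeks, did not pass. Of 10 MHC class II genes, which present antigen, 8 were higher with a median of 0.94 (none with 2 surrogate variables; 3 without Ctrl_20wk replicate 1 or without Ctrl_8wk replicate 2); H2-Aa was at 1289, 739.7, 928 and 781 CPM at 20 weeks and 584, 335, 420.2 and 562 CPM at 8 weeks (0.98 ± 0.26 SE, adjusted p = 0.0101).

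All 28 genes tested of DNA replication and mitosis were higher at 20 weeks without overlap between the ages, in a table where 33.2% of genes did not overlap; the median log2 fold change was 1.55. With 2 surrogate variables 9 of the 28 were called. All 28 were called higher in the OE mice, with a median of 1.21. Pcna, the sliding clamp of DNA polymerase, was at 133, 163, 169 and 111 CPM at 20 weeks and 61.7, 46.4, 53.9 and 50.3 CPM at 8 weeks (1.44 ± 0.17 SE, adjusted p = 6.89e-05). Tk1, thymidine kinase, was at 23.5, 28.5, 34.0 and 22 CPM at 20 weeks and 5.37, 3.89, 6.94 and 5.17 CPM at 8 weeks (2.34 ± 0.32 SE, adjusted p = 0.000143), and Mcm6, a subunit of the replicative helicase, rose by 1.53 ± 0.20 SE, adjusted p = 9.11e-05. Mki67, a marker of cycling cells chosen after its values were seen, was at 70.0, 110.4, 116 and 82.1 CPM at 20 weeks and 37.1, 25.1, 25.1 and 37.7 CPM at 8 weeks (1.60 ± 0.28 SE, adjusted p = 0.00067). Its ratio to Adgre1 was 8.97% to 17.4% at 20 weeks and 34.3% to 52.3% at 8 weeks, a log2 difference of -1.68. Thus it rose in CPM and was lower relative to the macrophage marker. Among 23 p53 targets and cell cycle inhibitors 8 were higher and 2 lower (3 and 1 with 2 surrogate variables; 4 lower without the libraries that stood apart and 5 without Ctrl_8wk replicate 4). Sesn1, a stress-induced regulator of growth signalling, was at 110.1, 149.6, 155 and 109.8 CPM at 20 weeks and 39.9, 53.1, 50.7 and 49.7 CPM at 8 weeks (1.44 ± 0.16 SE, adjusted p = 5.14e-05). Gdf15, a stress cytokine, was at 7.59, 10.4, 9.22 and 5.29 CPM at 20 weeks and 0.637, 0.713, 1.18 and 1.34 CPM at 8 weeks (3.06 ± 0.47 SE, adjusted p = 0.000283). Cdkn2a, the locus of p16 and Arf, was low but without overlap, at 2.46, 3.01, 1.96 and 1.80 CPM at 20 weeks and 0.691, 0.561, 0.635 and 0.244 CPM at 8 weeks (2.12 ± 0.41 SE, adjusted p = 0.00131). Cdkn2c, another inhibitor of cyclin-dependent kinases, fell, with 72.5, 64.9, 57.5 and 82.3 CPM at 20 weeks and 159, 264, 221 and 116 CPM at 8 weeks (-1.45 ± 0.25 SE, adjusted p = 0.000639). Cdkn1a, which encodes p21, did not pass, at 155, 128, 123 and 129 CPM at 20 weeks and 242, 114, 95.1 and 52.7 CPM at 8 weeks.

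Mast cell genes rose in 9 of 12 cases, with a median of 3.01 (6 of 12 with 2 surrogate variables). The protease Mcpt4 was at 63.2, 71.5, 67.4 and 30.9 CPM at 20 weeks and 2.44, 7.34, 7.30 and 9.43 CPM at 8 weeks. Cpa3, a carboxypeptidase, was at 55.4, 60.3, 57.0 and 28.7 CPM at 20 weeks and 2.50, 6.69, 5.80 and 8.45 CPM at 8 weeks. Neither had overlap, and their lowest values were in Ctrl_8wk replicate 1. The receptor subunit Ms4a2 rose by 2.96 ± 0.43 SE, adjusted p = 0.000203 and Kit, at 28, 23.3, 20.3 and 17.6 CPM at 20 weeks and 14.1, 18.4, 19.9 and 22.6 CPM at 8 weeks, did not pass. For several genes of T and B cells Ctrl_20wk replicate 1 was the highest library. Of 20 T cell genes 5 were higher (2 with 2 surrogate variables; 3 without Ctrl_20wk replicate 1). Il7r, the interleukin 7 receptor, was at 55.6, 74.2, 78.7 and 56.8 CPM at 20 weeks and 6.21, 2.27, 2.02 and 3.57 CPM at 8 weeks (4.24 ± 0.56 SE, adjusted p = 0.000113). Lck, a kinase of the T cell receptor, was at 13.4, 2.46, 2.89 and 3.62 CPM at 20 weeks and 2.52, 2.38, 3.83 and 6.50 CPM at 8 weeks. Cd3e, a chain of that receptor, was at 6.52, 1.22, 1.71 and 1.55 CPM at 20 weeks and 1.01, 0.626, 0.839 and 1.91 CPM at 8 weeks. Neither passed, and Ctrl_20wk replicate 1 was the highest for both. Cd3e was called higher without Ctrl_8wk replicate 4 (adjusted p = 0.049). Cd3e was chosen after its values were seen. Of 18 B and plasma cell genes 13 were higher and 2 lower (1 and 1 with 2 surrogate variables, 8 and 1 without the libraries that stood apart; 6 higher without Ctrl_20wk replicate 1). Cd22, a lectin of B cells, was even across the 20-week libraries, with 28, 22, 24.1 and 14.6 CPM at 20 weeks and 1.06, 1.58, 1.38 and 1.64 CPM at 8 weeks (3.96 ± 0.51 SE, adjusted p = 9.81e-05). Cd79b, of the B cell receptor, was at 19.2, 4.44, 5.03 and 6.46 CPM at 20 weeks and 1.83, 2.07, 3.33 and 2.19 CPM at 8 weeks. It was highest in Ctrl_20wk replicate 1, and its log2 fold change was 1.89 with that library and 1.17 without it. Ighm, the immunoglobulin mu chain, was at 1549, 327, 272 and 597 CPM at 20 weeks and 1078, 1083, 1057 and 386 CPM at 8 weeks, with overlap and no call. Summed over the 89 immunoglobulin and T cell receptor variable segments tested, the controls had 844, 70.6, 41.0 and 145 CPM at 20 weeks and 7.17, 29.5, 33.6 and 22.7 CPM at 8 weeks. All 20-week libraries were above the 8-week ones, by a margin that rested on Ctrl_20wk replicate 1 and, to a lesser degree, replicate 4; in the OE mice the ranges, 21.7 to 242 and 10.7 to 69.3 CPM, overlapped.

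Genes of the mature adipocyte fell, but unevenly. None of 20 was higher and 15 were lower, all 15 without overlap, with a median log2 fold change of -1.2; with 2 surrogate variables 6 were lower and 1 higher. Adipoq, the hormone adiponectin, was at 1052, 795, 636 and 1389 CPM at 20 weeks and 3157, 2245, 2384 and 2057 CPM at 8 weeks (-1.35 ± 0.32 SE, adjusted p = 0.00453). Adrb3, the beta-3 adrenergic receptor that starts lipolysis, was at 61.0, 54.8, 26.6 and 99.9 CPM at 20 weeks and 521, 456, 352 and 637 CPM at 8 weeks, a drop of several fold in every library (-3.02 ± 0.46 SE, adjusted p = 0.000282). Slc2a4, the insulin-responsive glucose transporter GLUT4, was at 41.2, 28.6, 19.3 and 44.6 CPM at 20 weeks and 123, 185, 153 and 135 CPM at 8 weeks (-2.16 ± 0.33 SE, adjusted p = 0.000262). Pparg, the master transcription factor of adipocytes, was at 114, 85.3, 85.5 and 98.2 CPM at 20 weeks and 209, 206, 249.8 and 171 CPM at 8 weeks, a smaller fall (-1.13 ± 0.16 SE, adjusted p = 0.000156), and Klf15, a factor of adipocyte metabolism, fell with a log2 fold change of -1.93 ± 0.28 SE, adjusted p = 0.000217. Car3, carbonic anhydrase 3, the fifth of all genes by mean TPM at 8 weeks and chosen for that rank, was at 2274, 1673, 1123 and 3045 CPM at 20 weeks and 9968, 14860, 12390 and 8439 CPM at 8 weeks (-2.49 ± 0.40 SE, adjusted p = 0.00037). Other adipocyte genes did not pass. Fabp4 was at 6934, 5683, 4569 and 7542 CPM at 20 weeks and 9045, 11110, 9284 and 7334 CPM at 8 weeks. Lep, which encodes the satiety hormone leptin, was at 2312, 1558, 1786 and 3240 CPM at 20 weeks and 5202, 3190, 3018 and 1068 CPM at 8 weeks. Cidec, a lipid droplet protein, was at 1730, 1473, 1095 and 2180 CPM at 20 weeks and 3810, 2860, 2657 and 1778 CPM at 8 weeks. For Fabp4 and Cidec the lowest 8-week library was Ctrl_8wk replicate 4, and without it both were called lower, with adjusted p-values of 0.0475 and 0.0255; Cidec was also called without Ctrl_20wk replicate 4 (0.035).

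Set against Adipoq within each library, Cfd was 26.7%, 18.5%, 17.4% and 21.3% at 20 weeks and 62.8%, 171%, 192% and 318% at 8 weeks. The mean log2 ratio differed by -2.95 without overlap. Also without overlap, the differences were -2.39 for Retn, -1.75 for Adrb3 and -0.84 for Scd1, and 0.81 for Fabp4 and 1.05 for Lep, which were higher against Adipoq. Slc2a4, at a difference of -0.83, overlapped between the ages, as did Pparg at 0.26. The summed counts of the 20 adipocyte markers were 15200 to 28400 CPM at 20 weeks and 40700 to 57800 CPM at 8 weeks, and those of the 20 macrophage markers 7060 to 11200 and 1760 to 3090 CPM.

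Genes of lipid synthesis fell as well. Of 19 genes of fatty acid synthesis 13 were lower and none higher (4 lower with 2 surrogate variables). Scd1, the stearoyl-CoA desaturase, was at 9270, 6676, 5305 and 9625 CPM at 20 weeks and 37230, 51220, 31740 and 25080 CPM at 8 weeks (-2.23 ± 0.34 SE, adjusted p = 0.000293). Thrsp, a regulator of lipogenesis, was at 159.7, 138, 81.5 and 178 CPM at 20 weeks and 733, 853, 790.5 and 407 CPM at 8 weeks (-2.32 ± 0.35 SE, adjusted p = 0.000239). Srebf1, the transcription factor of the pathway, was at 206, 184, 169 and 226 CPM at 20 weeks and 379.8, 341, 392 and 330.1 CPM at 8 weeks (-0.88 ± 0.18 SE, adjusted p = 0.00213). Fasn, fatty acid synthase, was at 1914, 1884, 1787 and 3234 CPM at 20 weeks and 5062, 5500, 4290 and 1368 CPM at 8 weeks and did not pass; Ctrl_8wk replicate 4 was the lowest of the 8 libraries, and without it the log2 fold change was -1.17, with an adjusted p of 0.00892, and without Ctrl_20wk replicate 4 it was -1.12 with 0.0474. Of 17 genes of triglyceride assembly 9 were lower and 1 higher (none and 3 with 2 surrogate variables; 5 lower without Ctrl_20wk replicate 2 or 3). Mogat1, a monoacylglycerol acyltransferase, was at 3.68, 3.11, 1.73 and 4.74 CPM at 20 weeks and 15.2, 24.4, 20.1 and 17.1 CPM at 8 weeks (-2.53 ± 0.43 SE, adjusted p = 0.000535). Gpd1, which supplies the glycerol backbone, did not pass, at 948, 924, 764 and 1269 CPM at 20 weeks and 914, 1097, 1136 and 449 CPM at 8 weeks. Among 22 lipid droplet and lipolysis genes 11 were lower and 2 higher (2 and 1 with 2 surrogate variables). Plin1, the perilipin of mature adipocytes, was at 632, 525, 449 and 791 CPM at 20 weeks and 1404, 1541, 1433 and 1043 CPM at 8 weeks (-1.18 ± 0.25 SE, adjusted p = 0.00216), and Lipe, hormone-sensitive lipase, fell with a log2 fold change of -1.28 ± 0.26 SE, adjusted p = 0.00189. Plin2, a perilipin found in many cell types, moved in the opposite direction, with 1513, 2054, 1764 and 1345 CPM at 20 weeks and 680.4, 481, 444 and 244 CPM at 8 weeks (1.85 ± 0.28 SE, adjusted p = 0.00027). Fatty acid oxidation did not fall as a group: 2 of 20 genes were higher and 4 lower (3 and none with 2 surrogate variables, 2 and 7 without the libraries that stood apart). Cpt1a, the carnitine transferase of the liver type, was at 256, 306, 299.6 and 262 CPM at 20 weeks and 191, 193, 193 and 166 CPM at 8 weeks, tightly grouped (0.60 ± 0.08 SE, adjusted p = 0.000142).

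Genes of amino acid catabolism were lower, and those of the tricarboxylic acid cycle and oxidative phosphorylation were lower by smaller amounts. In branched-chain amino acid catabolism, which feeds lipogenesis in adipocytes, 16 of 22 genes were lower and 1 higher, with a median of -0.83 (2 lower and none higher with 2 surrogate variables). The OE mice had 13 lower and 1 higher. Bcat2, the aminotransferase of the first step, was at 73.7, 64.6, 57.8 and 67.5 CPM at 20 weeks and 107, 162, 147 and 131 CPM at 8 weeks (-1.05 ± 0.17 SE, adjusted p = 0.000356). Dbt, a subunit of the branched-chain dehydrogenase, was at 34.7, 29.5, 27.8 and 42.8 CPM at 20 weeks and 65.9, 86.5, 76.6 and 69.6 CPM at 8 weeks (-1.15 ± 0.18 SE, adjusted p = 0.000382), and Acadsb, an acyl-CoA dehydrogenase further down, fell with a log2 fold change of -1.32 ± 0.19 SE, adjusted p = 0.000181. Of 22 genes of the tricarboxylic acid cycle and pyruvate entry 13 were lower and none higher, with a median of -0.42. Mdh1, cytosolic malate dehydrogenase, was at 337, 309, 261 and 341 CPM at 20 weeks and 488, 629, 591 and 455 CPM at 8 weeks (-0.79 ± 0.15 SE, adjusted p = 0.00123). Cs, citrate synthase, did not pass, at 333, 328, 294 and 399 CPM at 20 weeks and 452, 542, 484 and 342 CPM at 8 weeks (adjusted p = 0.0578, and 0.019 without Ctrl_8wk replicate 4 and 0.0413 without Ctrl_20wk replicate 4). Nuclear genes of oxidative phosphorylation were lower in 28 of 41 cases with a median of -0.38, and mitochondrial ones in 10 of 13 with a median of -0.50. None of either list was called with 2 surrogate variables, none of the cycle's genes was lower there, and 3 of the mitochondrial genes were called without the libraries that stood apart. Against a minimum fold of 1.2, 10 of the nuclear list, 4 of the mitochondrial list and 8 of the cycle were lower. Leaving out single libraries moved these counts too: the cycle had 7 lower without Ctrl_20wk replicate 3 and 8 without Ctrl_8wk replicate 2. The nuclear list had 14 without Ctrl_20wk replicate 3 and 13 and 16 without Ctrl_8wk replicates 2 and 3, and the mitochondrial list 4 or 5 without Ctrl_20wk replicate 2 or 3 or without Ctrl_8wk replicate 2. In the OE mice 9 of 41 and 1 of 13 were lower. Cox6c, of cytochrome oxidase, was at 128, 122, 112 and 118 CPM at 20 weeks and 148, 188, 182 and 179 CPM at 8 weeks (-0.54 ± 0.09 SE, adjusted p = 0.000567). COX1, the mitochondrially encoded catalytic subunit, did not pass, at 10430, 9103, 8224 and 9669 CPM at 20 weeks and 12230, 13600, 9858 and 11400 CPM at 8 weeks.

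Glycolytic genes did not share a direction, with 3 of 20 higher, 3 lower and a median of -0.01 (1 and 1 with 2 surrogate variables, 5 and 6 without the libraries that stood apart; 7 lower without Ctrl_8wk replicate 4). Hk2, the hexokinase of insulin-sensitive tissue, was at 82.5, 65.8, 57.8 and 93.8 CPM at 20 weeks and 142, 162, 133 and 136 CPM at 8 weeks (-0.94 ± 0.17 SE, adjusted p = 0.000725). Hk3, the hexokinase of myeloid cells, was at 79.1, 167, 146 and 95.9 CPM at 20 weeks and 16.1, 4.90, 6.83 and 10.9 CPM at 8 weeks (3.66 ± 0.50 SE, adjusted p = 0.000131). In insulin signalling 11 of 22 were lower and 3 higher (3 and 2 with 2 surrogate variables). Irs1, the insulin receptor substrate, was at 17.4, 19.9, 14.6 and 24.3 CPM at 20 weeks and 39.4, 47.5, 41.3 and 59.2 CPM at 8 weeks (-1.30 ± 0.24 SE, adjusted p = 0.000977). Cav1, the caveolae protein, was at 1548, 1206, 1118 and 1927 CPM at 20 weeks and 3496, 3468, 3129 and 2168 CPM at 8 weeks (-1.08 ± 0.23 SE, adjusted p = 0.00222). Ptpn1, a phosphatase that switches the insulin receptor off, rose, with 126, 126, 138 and 102 CPM at 20 weeks and 85.4, 65.3, 66.2 and 69.6 CPM at 8 weeks (0.78 ± 0.16 SE, adjusted p = 0.00175), while Irs2 and Pik3ca did not pass, with log2 fold changes of -0.31 and -0.06. Of 33 glutathione and antioxidant genes 20 were lower and 3 higher, with a median of -0.56 (7 and 1 with 2 surrogate variables). Gsta3, a glutathione transferase, was at 17.3, 11.3, 11.4 and 23.5 CPM at 20 weeks and 111, 146, 114 and 84.2 CPM at 8 weeks (-2.85 ± 0.34 SE, adjusted p = 6.53e-05). Gstm2, another transferase, was at 85.8, 65.1, 68.9 and 99.4 CPM at 20 weeks and 188, 181, 220.1 and 202 CPM at 8 weeks (-1.31 ± 0.16 SE, adjusted p = 7.57e-05). Nfe2l2, the transcription factor NRF2, rose a little, with 124, 118, 129.8 and 103 CPM at 20 weeks and 79.0, 76.3, 83.4 and 82.0 CPM at 8 weeks (0.57 ± 0.13 SE, adjusted p = 0.00362). Cyp2e1, a cytochrome P450 known mainly from liver, had one of the largest falls of an abundant gene, with 62.8, 51.0, 19.6 and 85 CPM at 20 weeks and 1010, 1113, 776 and 1391 CPM at 8 weeks (-4.30 ± 0.52 SE, adjusted p = 7.07e-05). Of 19 acute phase genes tested 8 were lower and 1 higher (6 and none with 2 surrogate variables, 8 and 3 without the libraries that stood apart). Orm3 (-4.21 ± 0.41 SE, adjusted p = 3.01e-05) and Serpina3b (-4.33 ± 0.68 SE, adjusted p = 0.000324, and -5.26 without Ctrl_20wk replicate 4) fell from low levels. Hp, the hemoglobin carrier haptoglobin and the fifth of all genes by mean TPM at 20 weeks, was the one called higher, at 5282, 4056, 4323 and 6293 CPM at 20 weeks and 4588, 2282, 2363 and 1774 CPM at 8 weeks (0.86 ± 0.26 SE, adjusted p = 0.0197). That call was lost with 2 surrogate variables, with only the control libraries in the fit (adjusted p = 0.0514), without Ctrl_20wk replicate 4 (0.055) and without Ctrl_8wk replicate 2 (0.0573) or 3 (0.0552).

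**Figure D3:**
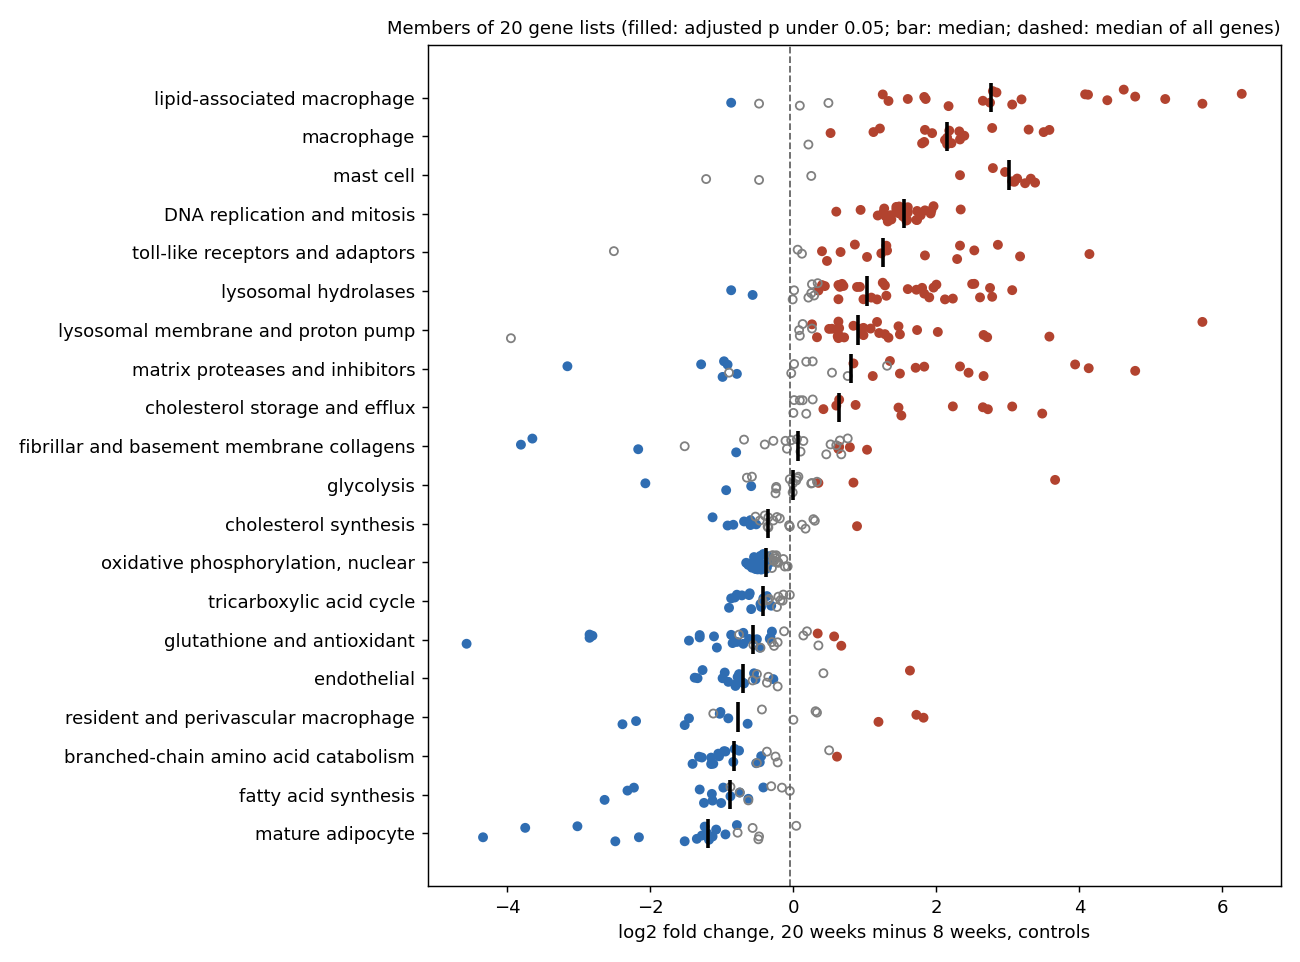
Log2 fold change, 20 weeks minus 8 weeks in the controls, for the members of 20 gene lists, with filled points for genes past an adjusted p of 0.05, open points for the others, and a bar at the list's median. The medians of the macrophage, lipid-associated macrophage, lysosomal and replication lists lie to the right of the dashed median of all genes (-0.05). Those of the adipocyte, lipid synthesis, amino acid and vascular lists lie to its left, as does that of resident and perivascular macrophages (-0.78).

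Few collagen genes were called, and more of the proteases that cut matrix. Of 24 collagen genes 4 were higher and 4 lower, near the background (none and 1 with 2 surrogate variables, 4 and 7 without the libraries that stood apart; 1 or 2 higher without any single library but Ctrl_20wk replicate 1 and Ctrl_8wk replicate 1). The log2 fold changes of the 24 ranged from -3.81 to 1.03, with a median of 0.07. Col3a1, a fibrillar collagen, did not pass by edgeR, at 3463, 5329, 5455 and 3401 CPM at 20 weeks and 3033, 2826, 3061 and 2176 CPM at 8 weeks. Col4a1, of basement membranes, did not pass, at 2176, 2187, 2060 and 2356 CPM at 20 weeks and 3379, 2324, 2302 and 1462 CPM at 8 weeks. Of 28 other matrix proteins and crosslinkers 10 were higher and 2 lower (6 and 2 with 2 surrogate variables; 4 lower without the libraries that stood apart or without Ctrl_8wk replicate 4). Lum, the proteoglycan lumican, was at 350.5, 368, 441 and 334 CPM at 20 weeks and 146, 146, 164 and 112 CPM at 8 weeks, without overlap (1.39 ± 0.15 SE, adjusted p = 4.9e-05). Thbs2, a thrombospondin, was at 108, 101, 157 and 117 CPM at 20 weeks and 42.6, 25.7, 32.7 and 27.3 CPM at 8 weeks (1.91 ± 0.26 SE, adjusted p = 0.00014). Eln, elastin, fell, with 101, 79.2, 104 and 123 CPM at 20 weeks and 201, 339, 377 and 242 CPM at 8 weeks (-1.51 ± 0.24 SE, adjusted p = 0.00038). Of 26 proteases and inhibitors 12 were higher and 6 lower (9 and 3 with 2 surrogate variables). Mmp11, stromelysin-3, had the smallest adjusted p of the list, at 39.7, 41.8, 52.1 and 33.2 CPM at 20 weeks and 5.31, 6.84, 6.67 and 7.46 CPM at 8 weeks (2.66 ± 0.18 SE, adjusted p = 4.69e-06). Mmp3 rose by 3.94 ± 0.44 SE, adjusted p = 5.14e-05, Mmp14, the membrane-bound activator of other metalloproteases, by 1.49 ± 0.18 SE, adjusted p = 7.88e-05, and Mmp2, a gelatinase, by 1.71 ± 0.20 SE, adjusted p = 6.32e-05. The inhibitors did not share a direction. Timp4, the inhibitor of metalloproteases that adipocytes make, was at 35.2, 16.5, 13 and 29.7 CPM at 20 weeks and 291, 187, 186 and 176 CPM at 8 weeks (-3.16 ± 0.41 SE, adjusted p = 0.000109). Timp3, another inhibitor, was at 227, 179.8, 164 and 206 CPM at 20 weeks and 316, 323, 333 and 372 CPM at 8 weeks (-0.79 ± 0.11 SE, adjusted p = 0.000138). Timp1, chosen after its values were seen, was at 37.2, 52.1, 65.8 and 36.2 CPM at 20 weeks and 16.6, 6.84, 7.51 and 4.30 CPM at 8 weeks (2.45 ± 0.51 SE, adjusted p = 0.00205).

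Growth and differentiation signals were lower in part. Among 21 growth genes of fat expansion 11 were lower and none higher (2 lower with 2 surrogate variables; 6 without Ctrl_20wk replicate 3). Plagl1, an imprinted transcription factor, was at 18.4, 15.8, 15.5 and 25.4 CPM at 20 weeks and 71.4, 103, 93.3 and 67.9 CPM at 8 weeks (-2.16 ± 0.24 SE, adjusted p = 4.85e-05). Igf2, an imprinted growth factor, was at 2.58, 3.33, 3.52 and 6.21 CPM at 20 weeks and 9.56, 23.9, 23.2 and 18 CPM at 8 weeks (-2.25 ± 0.37 SE, adjusted p = 0.00043). Mest, another imprinted gene of expanding fat, did not pass, at 589, 362, 376 and 712 CPM at 20 weeks and 1366, 628, 770.1 and 319 CPM at 8 weeks. Of 25 Wnt genes 8 were lower and 3 higher (3 and 1 with 2 surrogate variables; 5 lower without Ctrl_20wk replicate 3). Axin2, a feedback target of the pathway, was at 12.7, 8.18, 8.64 and 16.1 CPM at 20 weeks and 34.3, 51.9, 45.4 and 36.4 CPM at 8 weeks (-1.88 ± 0.25 SE, adjusted p = 0.000113). The coreceptor Lrp5 was at 80.6, 79.3, 75.1 and 81.0 CPM at 20 weeks and 152, 155, 159.5 and 149 CPM at 8 weeks (-0.96 ± 0.11 SE, adjusted p = 4.72e-05). The coreceptor Lrp6 did not pass, at 171, 157, 162 and 175 CPM at 20 weeks and 161, 159, 136 and 165 CPM at 8 weeks. In the TGF beta, activin and BMP list 10 of 32 were lower and 5 higher (2 and 2 with 2 surrogate variables; 6 lower without Ctrl_20wk replicate 2 or 3 or without Ctrl_8wk replicate 2). Tgfb1, the main ligand, was at 140.5, 166, 168 and 109 CPM at 20 weeks and 69.5, 50.6, 56.0 and 48.3 CPM at 8 weeks (1.38 ± 0.21 SE, adjusted p = 0.000237). Acvr1c, the activin receptor ALK7 of adipocytes, was at 57.1, 48.2, 38.8 and 75.5 CPM at 20 weeks and 131, 196, 129 and 173 CPM at 8 weeks (-1.52 ± 0.27 SE, adjusted p = 0.000713). Of 20 stromal progenitor genes 7 were higher and 3 lower (2 and none with 2 surrogate variables). The receptor Pdgfra was at 120.0, 159, 169 and 149.8 CPM at 20 weeks and 70.2, 76.0, 79.6 and 93.1 CPM at 8 weeks (0.91 ± 0.17 SE, adjusted p = 0.000963). Ly6a, the stem cell antigen SCA1, did not pass, at 169, 146, 158 and 147 CPM at 20 weeks and 152, 121, 150.5 and 197 CPM at 8 weeks.

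Vessel genes were lower. Of 22 endothelial genes 15 were lower, 15 of the 22 without overlap, and 1 was higher, with a median of -0.70 (2 lower with 2 surrogate variables); of 15 angiogenic factors 12 were lower and none higher, with a median of -0.72 (4 lower). Vegfa, the growth factor of endothelium, was at 91.8, 91.9, 77.2 and 126 CPM at 20 weeks and 259, 192, 171 and 165 CPM at 8 weeks (-1.02 ± 0.21 SE, adjusted p = 0.00202). Dll4, a Notch ligand of sprouting vessels, was at 16.0, 11.7, 13.8 and 18.9 CPM at 20 weeks and 59.3, 46.0, 38.4 and 29.1 CPM at 8 weeks (-1.52 ± 0.28 SE, adjusted p = 0.000848), and Rgcc, an endothelial regulator of the cell cycle, fell with a log2 fold change of -1.34 ± 0.24 SE, adjusted p = 0.000785. In the OE mice Vegfa had a log2 fold change of -0.31 and did not pass, and the difference between the genotypes had an adjusted p of 0.982. Of 16 smooth muscle and pericyte genes 13 were lower and 1 higher, with a median of -1.51 (7 lower and none higher with 2 surrogate variables). Rgs5, of pericytes, was at 124, 67.3, 76.7 and 128 CPM at 20 weeks and 236, 276, 215 and 233 CPM at 8 weeks (-1.28 ± 0.20 SE, adjusted p = 0.000372). Acta2 and Myh11, contractile genes of smooth muscle, were highest in Ctrl_8wk replicate 4. Acta2 was at 125, 77.6, 83.0 and 148 CPM at 20 weeks and 399, 277, 247 and 1012 CPM at 8 weeks. Myh11 was at 20.9, 17.0, 18.3 and 29.0 CPM at 20 weeks and 66.2, 137, 114 and 1361 CPM at 8 weeks. Their log2 fold changes were -2.16 ± 0.49 SE, adjusted p = 0.00385 and -4.30 ± 1.14 SE, adjusted p = 0.00916, and without that library -1.51 and -2.31, with adjusted p-values of 0.0112 and 0.0441. The erythroid genes, of red blood cells, were all lower, 7 of 7 without overlap, and Hbb-bs, a beta globin, was at 254, 316, 424 and 383 CPM at 20 weeks and 1718, 3153, 2669 and 1557 CPM at 8 weeks (-2.72 ± 0.49 SE, adjusted p = 0.000791); none of the 7 was called with 2 surrogate variables. The amount of blood left in the tissue is not given in the labels, and its part in the endothelial falls was not tested.

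Some of the largest falls were of genes that an adipocyte, immune or vascular list does not hold, and these were uneven among the 8-week libraries. Summed over the 24 genes of the epididymal epithelium list, the 8-week libraries had 14.0, 49.8, 231 and 3810 CPM and the 20-week libraries 8.59 to 22.1 CPM. Crisp1, a secreted protein of the epididymis, was at 1.62, 0, 0 and 0.844 CPM at 20 weeks and 1.43, 11.2, 138 and 3672 CPM at 8 weeks. Adam7, another gene of that epithelium, was at 0, 0, 0 and 0 CPM at 20 weeks and 0.159, 1.36, 24 and 7.21 CPM at 8 weeks. Summed over the 8 genes of the testis germ cell list, the 8-week libraries had 0.425, 49.2, 39.3 and 164 CPM and the 20-week libraries 10.5, 1.06, 0.603 and 0.463 CPM. Genes of motile cilia, a list added after the values were seen, were called lower in 18 of 25 cases, but only 3 of the 25 had no overlap. Foxj1, the transcription factor of motile cilia, was at 0.261, 0, 0.176 and 0.163 CPM at 20 weeks and 0.159, 16.6, 67.6 and 39.3 CPM at 8 weeks. Cfap43, a cilium protein, was at 0.724, 0.460, 0.302 and 0.545 CPM at 20 weeks and 0.823, 5.27, 9.82 and 9.92 CPM at 8 weeks. Lymphatic genes followed the same libraries. Prox1, the transcription factor of lymphatic endothelium, was at 0.377, 0.217, 0.653 and 0.844 CPM at 20 weeks and 0.691, 10.3, 8.12 and 9.24 CPM at 8 weeks. Ccl21a, its chemokine, was at 11.8, 5.12, 8.34 and 8.39 CPM at 20 weeks and 4.83, 125, 120.5 and 98.0 CPM at 8 weeks. Reln, the matrix protein reelin, was at 2.06, 1.06, 1.11 and 1.42 CPM at 20 weeks and 1.75, 32.1, 24.7 and 21.6 CPM at 8 weeks. Ctrl_8wk replicate 1 lay with the 20-week libraries for all 3. The lymphatic receptor Flt4, in contrast, had no overlap, with 10.5, 8.34, 8.24 and 13.1 CPM at 20 weeks and 22.1, 42.5, 39.0 and 33.7 CPM at 8 weeks (-1.77 ± 0.31 SE, adjusted p = 0.000619). Keratin genes of the mesothelial list behaved in the same way, with Krt8 at 5.42, 4.44, 5.10 and 6.48 CPM at 20 weeks and 6.64, 22.8, 87.1 and 90.2 CPM at 8 weeks. The mesothelial markers Upk3b and Msln did not pass. Upk3b was at 77.4, 55.1, 56.9 and 138 CPM at 20 weeks and 63.3, 88.6, 113 and 68.2 CPM at 8 weeks. Msln was at 27.2, 16.4, 26.4 and 37.4 CPM at 20 weeks and 36.6, 29.7, 44.9 and 19.3 CPM at 8 weeks. In the OE mice 10 of the 12 mesothelial genes were lower, with a median of -1.69 against -0.16 in the controls. The amounts of attached epididymal, lymphatic and mesothelial tissue are not given in the labels, and their part in these falls was not tested.

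**Figure D4:**
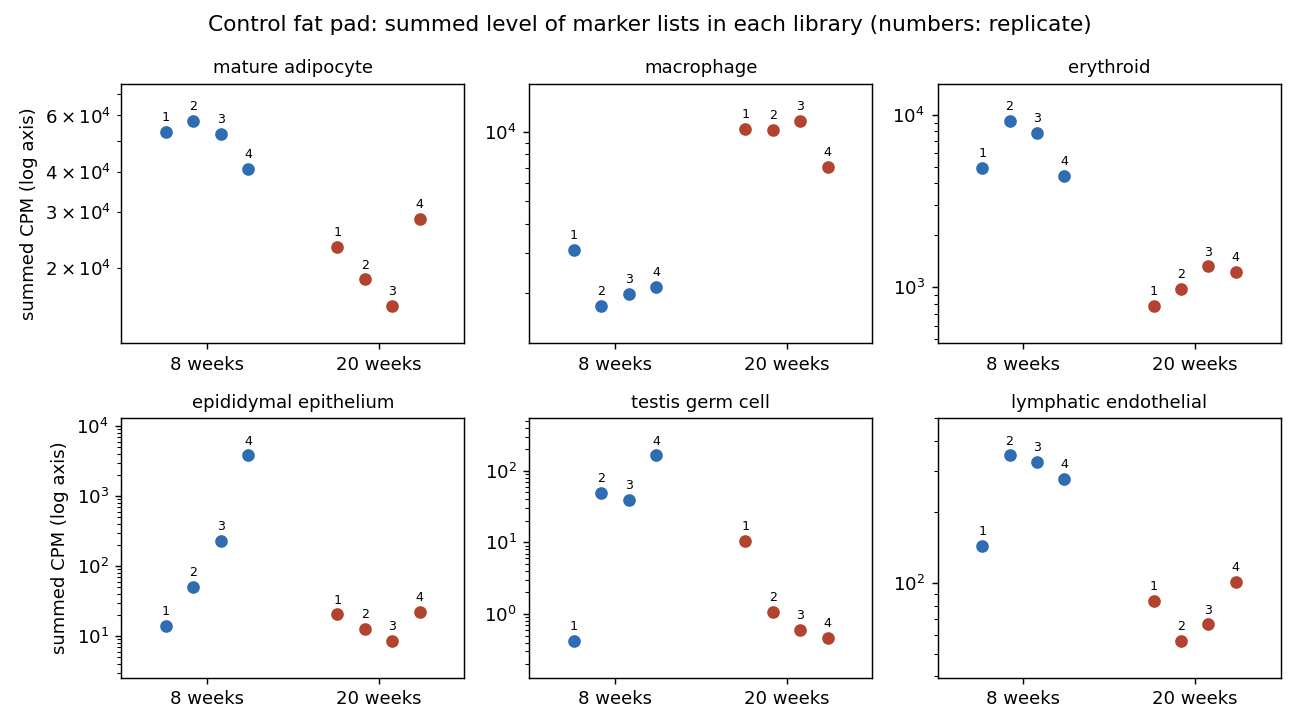
Summed CPM of 6 marker lists in each of the 8 control libraries, on a log axis. The epididymal sum reaches 3810 CPM in Ctrl_8wk replicate 4, and the germ cell sum of Ctrl_8wk replicate 1 lies with those of the 20-week libraries, while the adipocyte, macrophage and erythroid sums separate the ages in all libraries.

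The OE mice, which share no library with the controls, changed in the same direction for most of these genes. Libraries of the 2 genotypes at an age can share its handling, so this likeness does not separate age from handling. Replicate 1 of Ctrl_8wk and of OE_8wk deviated together from their group means, with a correlation of 0.83 across genes. They had 2509 genes higher (13.1%) and 1902 lower (9.91%) at 20 weeks. Of the genes that rose in the controls, 2303 also rose in the OE mice, which is 61.1% of the control list and 91.8% of the OE list. Of those that fell, 1604 also fell, which is 39.3% and 84.3%, and no gene was called in opposite directions. The sign was shared by 98% of the genes that rose in the controls and by 99% of those that fell. The median log2 fold change of the control rises was 0.90 in the controls and 0.63 in the OE mice, and of the control falls -0.95 and -0.65; the genes were chosen by the control calls, so the first of each pair is set by the choice. Over all 19189 genes the 2 sets of fold changes had a Pearson correlation of 0.81 and a Spearman correlation of 0.856, a description across genes, which are not independent. No gene passed the edgeR test of the difference between the genotypes in the change with age; 650 had an unadjusted p under 0.05, and DESeq2 called 30. List by list, the OE medians were closer to 0 for macrophage genes (1.56 against 2.15), mature adipocyte genes (-0.78 against -1.2) and endothelial genes (-0.42 against -0.70). Summed macrophage markers were lowest of OE_20wk in replicate 1, 4770 CPM against 7900 to 10800 CPM, and its adipocyte sum was highest, 40800 against 19000 to 28600 CPM. In OE_8wk, replicate 2 had the highest macrophage sum, 3970 CPM, and the lowest adipocyte sum, 35400 CPM. Without OE_20wk replicate 1 the OE mice had 3107 genes higher and 2679 lower. The part of these libraries in the medians was not tested. Other lists differed in sign or were farther from 0 in the OE mice. The median was -0.26 against 2.15 for B and plasma cell genes, of which 3 were higher in the OE mice and 13 in the controls, and -0.13 against 1.03 for T cell genes. It was 0.28 against -0.35 for cholesterol synthesis and -1.69 against -0.16 for mesothelial genes. These differences between lists were not tested. Bhlhe40, a repressor in the circadian clock, was at 26.9, 30.2, 32.1 and 41.5 CPM at 20 weeks and 50, 52.7, 68.3 and 46.5 CPM at 8 weeks and fell in the controls (-0.73 ± 0.17 SE, adjusted p = 0.00418), with a log2 fold change of 0.44 in the OE mice that did not pass, and an adjusted p of 0.982 for the difference.

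**Figure D5:**
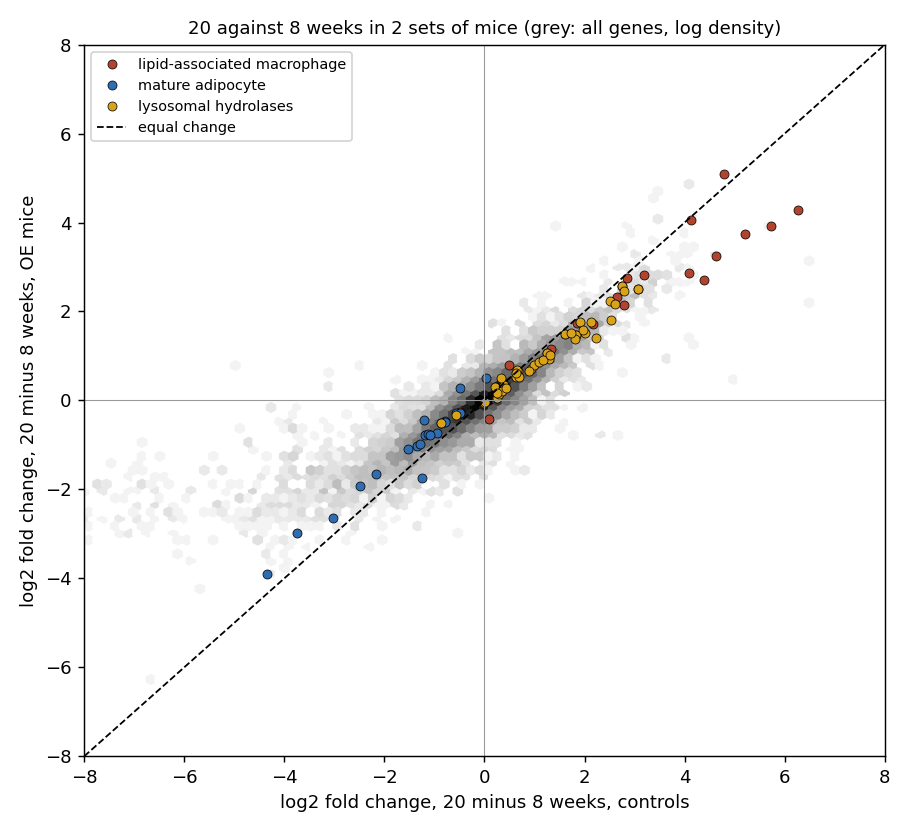
Log2 fold change, 20 weeks minus 8 weeks, in the OE mice (vertical axis) against that in the controls (horizontal axis) for all 19189 genes as a grey density, with the members of 3 lists as coloured points and the line of equal change. Most lipid-associated macrophage genes lie in the upper right and most mature adipocyte genes in the lower left. Acp5, of the lipid-associated list, is an exception, at -0.87 in the controls. Most points of both lists lie between the line and the horizontal axis. Outside the axes lie 205 genes, none of them of these 3 lists.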

How the data were processed

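RNA was measured in 16 epididymal fat libraries made with the RNeasy kit and the TruSeq stranded mRNA kit, per the labels' protocols. Reads were demultiplexed with bcl2fastq 2.20.0, trimmed with Trimmomatic, aligned to mm10 with HISAT2 2.1.0 and quantified with StringTie 2.1.3b, per the submitters' processing notes. The strand setting and the annotation release are not given in the sources used here, so overlapping and antisense genes could share reads. The deposited gene counts were used as whole numbers, and counts taken from StringTie can be rounded estimates. The TPM values are those the authors deposited and served only to rank levels between genes. The deposited FPKM values were not used.

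Of 45777 genes, 19189 passed edgeR's expression filter at a minimum count of 10. The test was edgeR 4.0.16's robust quasi-likelihood test (R 4.3.3) with TMM scaling. It was fitted over the 16 libraries in their 4 groups (12 residual degrees of freedom), and p-values were adjusted by the Benjamini-Hochberg method over all genes. SE is the absolute log2 fold change over the square root of F. In counts simulated for the control comparison, 16.9% of genes changed 1.5-fold, 64.3% of those changed 2-fold and 86.2% of those changed 4-fold were recovered among 18774 genes fitted, and 5.88% of all calls were false. Only 65, 70 and 65 genes were changed by these folds, and the libraries were drawn independently around common means. The real libraries differ in tissue content and 40.9% of genes were called, so these shares cannot be carried over to the calls reported here. The alternatives were DESeq2 1.42.0, its type of size factors, no filter, fewer groups, a replicate block, 2 surrogate variables (sva 3.50.0), a minimum fold of 1.2, and libraries left out.

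The genes named were the comparison's markers and Lta4h, the 15 largest rises and 15 largest falls among calls without overlap whose mean log2 CPM was 1 or more, up to 4 called members of each list in each direction by adjusted p, up to 3 uncalled members by level, and members of lists in which a library stood apart. The text prints some of them. Abca1, Atp6v0b, C1qa, Car3, Cd3e, Cfap43, Ctsa, Ctsd, Foxj1, Il1b, Il6, Lamp1, Lgals3, Mcoln1, Mki67, Mrc1, Soat1, Timp1 and Tnf fall outside this rule and were chosen after their values were seen. The comparison and the lists were chosen with earlier results of these data known.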

Additional observations from a re-analysis of the deposited data

Results flagged for a closer look

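In 4 of 70 groups of 4 control libraries, 1 library lay apart from the other 3 by more than Dixon's critical ratio for 4 values, where chance gives about 1 in 20. These groups were the marker genes, list sums and gene ratios at each age. The library with the epididymal transcripts, Ctrl_8wk replicate 4, had the lowest sum of B and plasma cell genes, 746 CPM against 1410 to 1460 CPM in the other 8-week libraries. The same library had the highest sum of smooth muscle and pericyte genes, 6190 CPM against 1940 to 2270 CPM. Gpnmb was highest in Ctrl_8wk replicate 1, at 52.0 CPM against 16.1 to 19.4 CPM, still far under every 20-week library. The ratio of Trem2 to Adgre1 was highest in Ctrl_8wk replicate 2, at 14.7% against 10.5% to 10.8%.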

How the results depend on the processing

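The controls had 3770 genes higher and 4083 lower. Across the libraries left out 1 at a time, these counts ranged from 2965 (without Ctrl_20wk replicate 3) to 3840 and from 2518 (without Ctrl_20wk replicate 3) to 4318 (without Ctrl_8wk replicate 1), and 2685 were lower without Ctrl_20wk replicate 2. In the OE mice they ranged from 1719 to 3107 higher and from 1014 to 2679 lower, with the lowest values without OE_20wk replicate 4 and the highest without OE_20wk replicate 1. The number of genes called for the difference between genotypes ranged from 0 to 3, was 30 by DESeq2, and was 1 without the 4 libraries that stood apart. With 2 surrogate variables 1083 genes were higher and 675 lower in the controls, and 1617 and 1078 in the OE mice. Against a minimum fold of 1.2, 2647 genes were lower in the controls and 1565 were higher and 851 lower in the OE mice. The other alternatives kept these counts within 1.5 times, and the cause of the differences was not tested.

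Of the genes named, 137 of 174 were called, and all of those tested were still called by RLE size factors, DESeq2, without the filter, against a fold of 1.2 and without the libraries that stood apart. Counts of several lists, mitochondrial ones among them, did move against a fold of 1.2. Lower there were 7 angiogenic factors, 5 Wnt genes, 4 genes of cholesterol synthesis and 3 interferon-stimulated genes. Higher were 7 genes of cholesterol storage and efflux, 5 p53 targets and cell cycle inhibitors, 4 stromal progenitor genes and 2 collagen genes. With only the 2 control groups, and without Ctrl_20wk replicate 4 or Ctrl_8wk replicate 2 or 3, the call of Hp was lost. Same-numbered control libraries of the 2 ages did not deviate together (correlations of -0.15 to -0.06). Those of Ctrl_8wk and OE_8wk correlated at 0.83 for replicate 1, -0.2 for 2, -0.03 for 3 and 0.28 for 4, so no pair of groups was paired by number throughout. A replicate block gave 3384 genes higher and 3161 lower in the controls, 2262 and 1548 in the OE mice and 0 for their difference, and among the genes named it ended only the call of Crisp1 (adjusted p = 0.138). Crisp1 was also lost without Ctrl_20wk replicate 2 or 3 or without Ctrl_8wk replicate 4. With 2 surrogate variables 93 of the 137 were still called and Ccl21a reversed, at a log2 fold change of 0.05 against -3.37. The calls lost under that model were those of Acp5, Acvr1c, Adam7, Adipoq, Alox5ap, Atp6v0b, Bcat2, Bhlhe40, C2, Ccl9, Cd79b, Cfap43, Cox6c, Crisp1, Flt4, Foxj1, H2-Aa, Hbb-bs, Hk2, Hp, Igf2, Irs1, Krt8, Lamp1, Lipe, Ltb4r1, Lyve1, Mcoln1, Mdh1, Mki67, Mogat1, Mrc1, Ms4a2, Nfe2l2, Plin1, Prox1, Ptpn1, Reln, Rgs5, Srebf1, Tgfb1, Timp1 and Tnf. Counts of genes under about 1 CPM rest on few reads, and 4 libraries a group limit what can be called among changes under 2-fold.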
